A study of Mus musculus with 6 samples.

Results

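The Notch pathway of the mouse kidney was examined here through 10 genes, the receptors Notch1, Notch2, Notch3 and Notch4, the ligands Jag1, Jag2, Dll1 and Dll4, and the target genes Hes1 and Hey1. They were picked by name from the 56691 genes of the count files, and all 10 had enough counts to be tested. The samples were whole kidneys of C57BL/6 male mice, 9 weeks old at the start, that received either cisplatin or saline. Cisplatin is a platinum compound used against tumours that injures the kidney tubule. In the cisplatin group, called the cisplatin-injured kidney below, mice were injected intraperitoneally with 8 mg/kg cisplatin once a week for 4 injections and kidneys were taken at the end of 7 weeks. The control group received saline, and no genetic change is named for either group (the label named genotype holds only the treatment). Total RNA was sequenced in 3 samples per group, 1 library each. The study describes the 3 samples of a group as biological replicates, and the labels only number them.

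Notch receptors are transmembrane proteins that are activated by ligands on a neighbouring cell. Ligand binding and endocytosis expose the receptor to ADAM proteases and then to gamma-secretase, which frees the Notch intracellular domain. This domain enters the nucleus, binds the DNA-binding protein RBPJ together with Mastermind and switches on targets such as the Hes and Hey repressors. In the kidney the pathway patterns the nephron during development, is little active in the adult tubule, and has been linked to tubule repair and fibrosis after injury. Notch1, Notch4 and Dll4 are known from endothelial cells, Notch3 from vascular smooth muscle cells and pericytes (mural cells), and Jag1 from tubule and vascular cells.

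Levels are given as CPM, the read pairs of a gene per 1000000 counted pairs after scaling by TMM, a normalization that assumes most genes do not change. Libraries held 21891855 to 25356523 counted pairs in the cisplatin group and 24111688 to 26627554 in the control group. Differences are log2 fold changes, cisplatin over control, with their standard error (SE), from edgeR's quasi-likelihood test, and p-values are adjusted with the Benjamini-Hochberg method over the 15662 genes tested, with a gene called changed when the adjusted p lies under 0.05. By this rule 47.4% of all tested genes were called, 24.5% higher and 22.8% lower in the cisplatin-injured kidney. As a check of the tissue, the summed level of 10 proximal tubule markers was 4842 to 5147 CPM in the cisplatin-injured kidney and 10922 to 12252 CPM in the control kidney, and all 9 injured tubule markers, among them Spp1, Krt8 and Havcr1, were called higher. In whole-kidney RNA, fewer cells of a type and less RNA per cell cannot be told apart.

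Jag1 and Notch3 were higher and Dll4 was lower in the cisplatin-injured kidney, and the other 7 members did not pass the test. Jag1 was 1.91-fold and Notch3 2.12-fold as high as in control, and Dll4 stood at 0.70 of its control level. The calls are 3 of 10 members, beside the 47.4% of all genes called, so the share called was not above that of genes in general. Their median log2 fold change was 0.22, beside 0.05 over all tested genes.

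**Figure D1:**
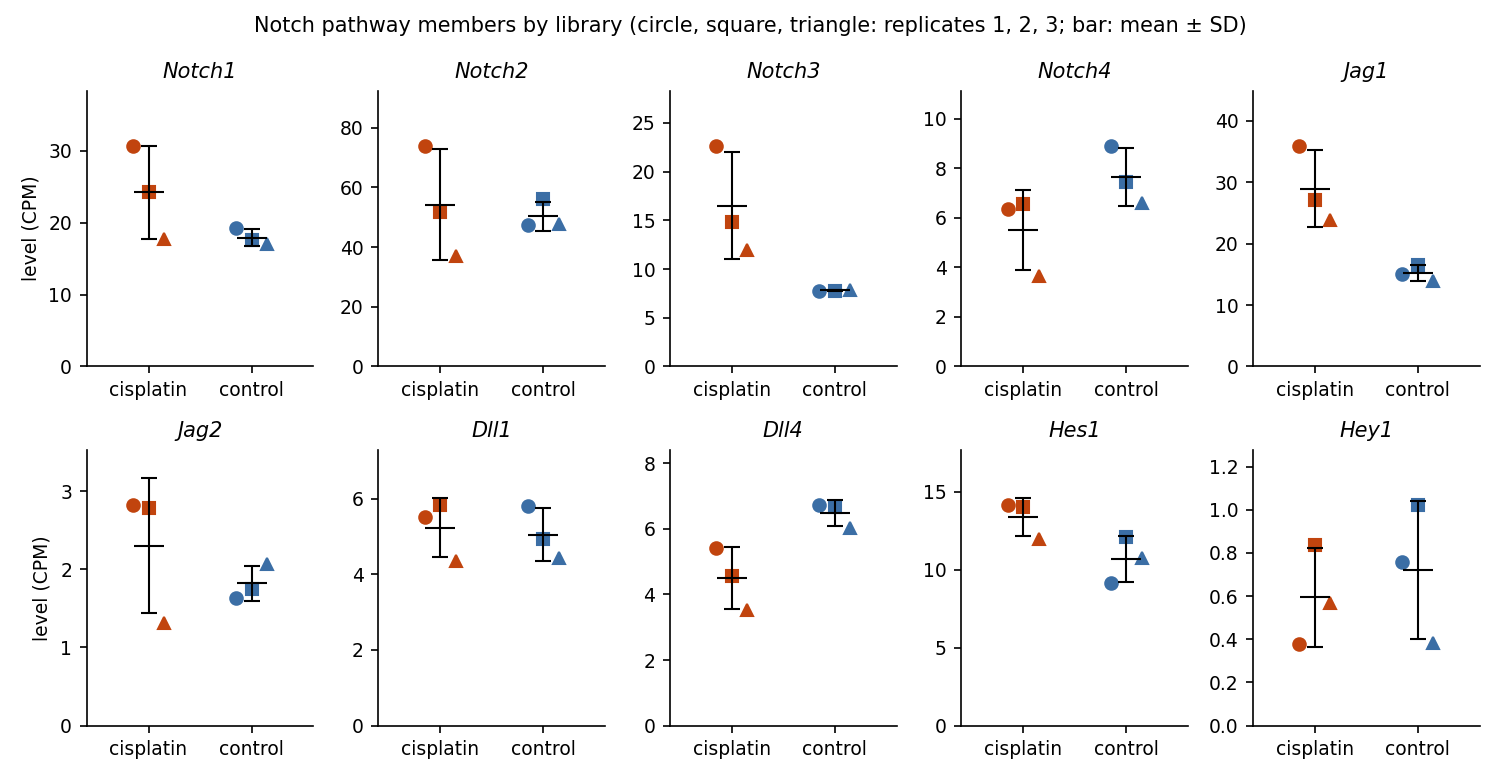
Level of each of the 10 genes in CPM (y axes from 0, each with its own scale) in the cisplatin and control libraries. Symbols stand for replicates 1, 2 and 3 and bars for the mean ± SD of 3 libraries. Notch3 and Jag1 lie wholly above their control values, Notch4 and Dll4 wholly below, and the third cisplatin library (triangle) is the lowest of its group for 9 of the 10 genes.

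Among the receptors, Notch3 was the one called changed. Notch3 encodes the receptor best known from mural cells, and mutations of human NOTCH3 cause a hereditary small vessel disease. It lies on chromosome 17 (32339794 to 32385893, minus strand, GRCm39). Its level was 22.7, 14.9 and 11.997 CPM in the cisplatin libraries, against 7.73, 7.79 and 7.89 CPM in the control libraries. The groups did not overlap, and the control values were nearly equal while the first cisplatin library stood well above the other two. The log2 fold change was 1.08 (SE 0.20, 95% interval 0.64 to 1.53, edgeR adjusted p = 0.00127, n = 3 per group).

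Notch1, the receptor of endothelium and of many epithelia (chromosome 2, 26347915 to 26406675, minus strand), had 30.7, 24.3 and 17.8 CPM in the cisplatin libraries, against 19.2, 17.5 and 17.02 CPM in the control libraries. The third cisplatin library lay inside the control range and the other two above it. The log2 fold change of 0.44 (SE 0.17, 95% interval 0.07 to 0.81) just missed the threshold in edgeR, with an adjusted p of 0.0503. Without the third cisplatin library it was 0.58 with an adjusted p of 0.000966, and without the first it was 0.23 with an adjusted p of 0.170. It was not called when the second cisplatin library or any control library was left out (adjusted p of 0.0764 to 0.141), and passed with upper-quartile factors (0.0196) and with counts of both strands (0.0458). In edgeR it also passed with library totals (0.00980), no low-count filter (0.00115) and at least 10 counts in every library (0.0435). It missed in DESeq2 (0.0602) and limma-voom (0.0738).

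Notch2, a receptor that acts in nephron formation (chromosome 3, 97920800 to 98057677, plus strand), had the highest count of the members. Its level was 74.0, 51.7 and 37.0 CPM in the cisplatin libraries, against 47.2, 56.0 and 47.6 CPM in the control libraries. The cisplatin values lay both above and below the control range, and the log2 fold change was 0.11 (SE 0.20, 95% interval -0.33 to 0.55, edgeR adjusted p = 0.666). Leaving out the first cisplatin library gave -0.18. The annotation places 541 exonic bases of Notch2 under a second gene model of the same strand, Gm42820, where read pairs cannot be assigned to one gene.

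Notch4, the receptor most restricted to endothelium (chromosome 17, 34783220 to 34807477, plus strand), had 6.34, 6.57 and 3.66 CPM in the cisplatin libraries, against 8.91, 7.45 and 6.59 CPM in the control libraries. All 3 cisplatin values lay below the control values, with the gap between the nearest of them very small. The log2 fold change was -0.46 (SE 0.21, edgeR adjusted p = 0.0888) and was not called.

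Of the ligands, Jag1 was called higher. Jagged1 is the ligand that human Alagille syndrome, a disease of liver, heart and kidney, is most often traced to. The gene lies on chromosome 2 (136923373 to 136958693, minus strand). It had 36.0, 27.1 and 23.8 CPM in the cisplatin libraries, against 15.1, 16.5 and 13.9 CPM in the control libraries. The lowest cisplatin value stood well above the highest control value. The log2 fold change was 0.93 (SE 0.15, 95% interval 0.61 to 1.26, edgeR adjusted p = 0.000418), the smallest p among the members.

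Dll4, the delta-like ligand of endothelial tip cells and arteries (chromosome 2, 119156170 to 119166443, plus strand), was called lower. It had 5.41, 4.56 and 3.53 CPM in the cisplatin libraries, against 6.73, 6.67 and 6.01 CPM in the control libraries. The groups did not overlap. The log2 fold change was -0.52 (SE 0.16, 95% interval -0.87 to -0.16, edgeR adjusted p = 0.0222). The call is less firm than those of Jag1 and Notch3, since the adjusted p was 0.0606 without the second cisplatin library, 0.0704 without the first control library and 0.0645 without the second, with log2 fold changes of -0.49 to -0.52, and with unscaled library totals the log2 fold change was -0.08 (adjusted p = 0.762).

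Jag2 and Dll1, the remaining pair of ligands, did not pass the test. Jag2 (chromosome 12, 112871421 to 112893437, minus strand) had 2.82, 2.78 and 1.31 CPM in the cisplatin libraries, against 1.64, 1.75 and 2.07 CPM in the control libraries. The first and second cisplatin libraries lay above and the third below all control libraries, with a log2 fold change of 0.36 (SE 0.28, edgeR adjusted p = 0.299), which was 0.59 (adjusted p = 0.0222) without the third cisplatin library but 0.21 without the first or without the second (adjusted p = 0.596 and 0.615). Dll1 (chromosome 17, 15587276 to 15597134, minus strand) had 5.51, 5.83 and 4.36 CPM in the cisplatin libraries, against 5.80, 4.92 and 4.42 CPM in the control libraries. These ranges nearly coincided, and the log2 fold change of 0.06 had a 95% interval of -0.30 to 0.41 (edgeR adjusted p = 0.796).

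**Figure D2:**
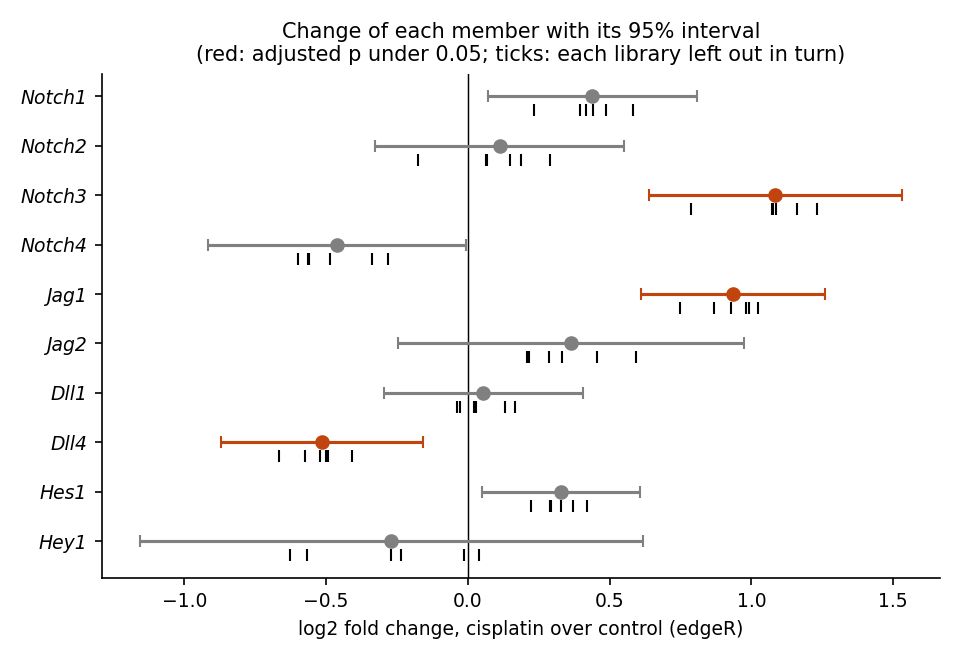
Log2 fold change (x axis, cisplatin over control, edgeR) of each of the 10 genes with its 95% interval. Red points passed an adjusted p of 0.05 and grey points did not, and the short ticks under each point give the estimate with each of the 6 libraries left out in turn. Jag1 and Notch3 stay above 0 and Dll4 below 0 under every omission, while the ticks of Notch2, Dll1 and Hey1 fall on both sides of 0.

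Hes1 and Hey1 encode basic helix-loop-helix repressors that are transcribed when RBPJ is bound by the Notch intracellular domain. Hes1 (chromosome 16, 29882134 to 29886643, plus strand) had 14.2, 14.01 and 11.95 CPM in the cisplatin libraries, against 9.16, 12.1 and 10.8 CPM in the control libraries. The groups met at one point, the second control library lying just above the third cisplatin library. The log2 fold change of 0.33 (SE 0.13, 95% interval 0.05 to 0.61) missed the threshold in edgeR with an adjusted p of 0.0527. It passed in limma-voom (adjusted p = 0.0474), without the second control library (0.0389) and without the third cisplatin library (0.0239), and missed in the other omissions, with an adjusted p of up to 0.218. In edgeR it also passed with upper-quartile factors (0.0181), library totals (0.00318) and at least 10 counts in every library (0.0394). In DESeq2 it missed (0.173).

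Hey1 (chromosome 3, 8726956 to 8732385, minus strand) was barely expressed, with 11, 25 and 13 counts in the cisplatin libraries, against 18, 21 and 8 counts in the control libraries. At this depth the 95% interval of its log2 fold change ran from -1.16 to 0.62 (edgeR adjusted p = 0.603). No change was detected, and the counts were compatible with changes in either direction within these bounds.

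RBPJ binds DNA at the core TGGGAA. The stretch just upstream of the canonical GENCODE transcript of Hes1 is printed to show where this core lies. It is given in the strand of the gene, from the GRCm39 genome, without bases that any annotated exon covers. Capitals mark TGGGAA. The stretch is chr16:29883877-29884126, plus strand, which lies inside the annotated span of the gene (from 29882134).
Hes1: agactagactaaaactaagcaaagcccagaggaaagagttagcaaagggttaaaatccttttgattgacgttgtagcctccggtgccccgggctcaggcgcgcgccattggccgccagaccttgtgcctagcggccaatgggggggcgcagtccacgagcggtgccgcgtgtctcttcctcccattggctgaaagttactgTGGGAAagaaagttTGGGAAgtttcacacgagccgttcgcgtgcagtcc
Searched on both strands within 250 bases before the start, the core (TGGGAA, or TTCCCA where it lies on the other strand) was found 2 times at Hes1, 49 and 35 bases before the start. Of 21630 protein-coding promoters, 22.8% held the core at least once and 3.07% at least 2 times. A match is a description of letters and not a measurement of binding.

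The other genes of the Hes and Hey families, and Nrarp, were not called either. Whether each of these genes answers to Notch in the kidney was not tested. Of 8 listed genes (Hes2, Hes3, Hes5, Hes6, Hes7, Hey2, Heyl and Nrarp, a feedback inhibitor of Notch), 4 were tested, with log2 fold changes of -0.25 for Hes6, 0.04 for Hey2, 0.50 for Heyl and -0.03 for Nrarp and edgeR adjusted p of 0.127 or more. Heyl, a target known from mural cells, had 165, 86 and 72 counts in the cisplatin libraries, against 61, 61 and 58 counts in the control libraries. All its cisplatin counts were above the control counts, yet after scaling the second cisplatin library (2.88 CPM) lay inside the control range (2.56 to 2.97 CPM). Hes3 and Hes5 had no count in any library, and Hes2 and Hes7 had too few to be tested.

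Per kilobase of exon, the levels of the members can be set beside each other. In the cisplatin-injured kidney Jag1 (mean 4.86 CPM per kb), Notch2 (4.81) and Hes1 (3.96) led, with library ranges that overlapped from each to the next. Notch3 (1.83), Notch1 (1.70), Dll4 (1.14) and Dll1 (1.06) followed, also overlapping from one to the next, and Notch4 (0.624), Jag2 (0.325) and Hey1 (0.124) closed the order, each apart from its neighbours. In the control kidney the order was Notch2 (4.46), Hes1 (3.17), Jag1 (2.54), Dll4 (1.64), Notch1 (1.26), Dll1 (1.02), Notch3 (0.866), Notch4 (0.864), Jag2 (0.257) and Hey1 (0.150), and overlapped between neighbours at Hes1 with Jag1 and at Notch3 with Notch4. Notch3 thus took the fourth place in the cisplatin-injured kidney and the seventh in control, and Dll4 the sixth in the cisplatin-injured kidney and the fourth in control. These levels divide by all annotated exons of a gene. With the shorter canonical transcript, a length chosen after the data were seen, Hes1 led in both groups, at 8.75 CPM per kb in the cisplatin-injured kidney and 6.99 in control, Notch3 took the fifth place in the cisplatin-injured kidney and the eighth in control, and Dll4 the seventh in the cisplatin-injured kidney and the fifth in control.

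**Figure D3:**
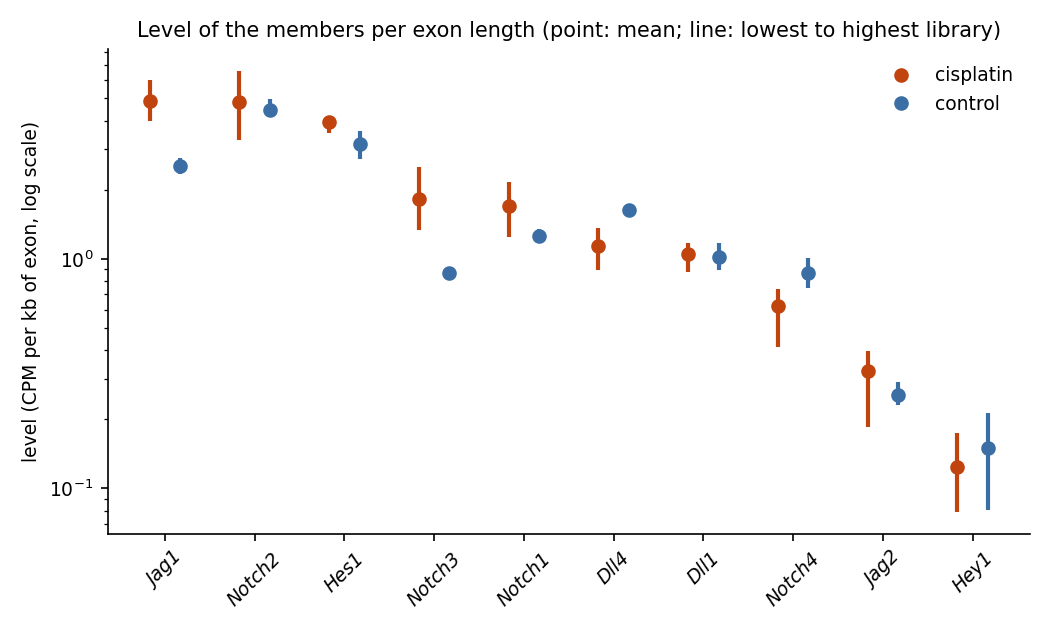
Level of each gene in CPM per kilobase of annotated exon (log axis), with the mean as a point and the lowest to highest of 3 libraries as a line, cisplatin left of control. Genes are ordered by their cisplatin mean. Jag1 and Notch3 are displaced upward and Dll4 downward from control, and Notch2 and Dll1 overlap between the groups.

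The makeup of the receptor and ligand mRNA was compared as shares, in which the scaling between libraries cancels. The shares of a pool add up to the whole, so a larger share of any gene lowers the sum of the others. Of the summed per-kilobase level of the 4 ligands, Jag1 took 67.7%, 62.6% and 67.1% in the cisplatin libraries, against 44.99%, 48.5% and 46.3% in the control libraries. Dll4 took 15.4%, 15.9% and 15.05% in the cisplatin libraries, against 30.2%, 29.7% and 30.2% in the control libraries. The share of Jag1 was thus larger by 19.2 percentage points in the cisplatin-injured kidney and that of Dll4 differed by -14.6 points, both far beyond the spread between replicates. Dll1 took 14.5% ± 1.87 in the cisplatin group and 18.6% ± 1.83 in the control group (SD, n = 3 each), without overlap, and Jag2 took 4.32% ± 1.15 in the cisplatin group and 4.74% ± 0.913 in the control group.

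Of the summed level of the 4 receptors, Notch3 took 21.0%, 19.0% and 21.2% in the cisplatin libraries, against 11.6%, 10.9% and 12.4% in the control libraries. Notch2 remained the largest part, with 53.4% ± 1.37 in the cisplatin group and 59.8% ± 3.12 in the control group (SD, n = 3 each). Notch4 took 7.04% ± 1.33 in the cisplatin group and 11.6% ± 1.72 in the control group, and the values of neither Notch2 nor Notch4 overlapped. Notch1 took 19.2% ± 0.987 in the cisplatin group and 16.9% ± 1.32 in the control group, with overlap. With 3 against 3 libraries a two-sided exact permutation test cannot give a p under 0.1, and 6 of the 8 shares reached that value (adjusted p = 0.133 over the 4 shares of each pool), Notch1 (p = 0.2) and Jag2 (p = 0.7) being the exceptions. Since the shares of a pool are tied, these are not separate results. Dll1 and Notch2 had smaller shares in the cisplatin group, while their levels were not called changed (log2 fold changes of 0.06 and 0.11).

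**Figure D4:**
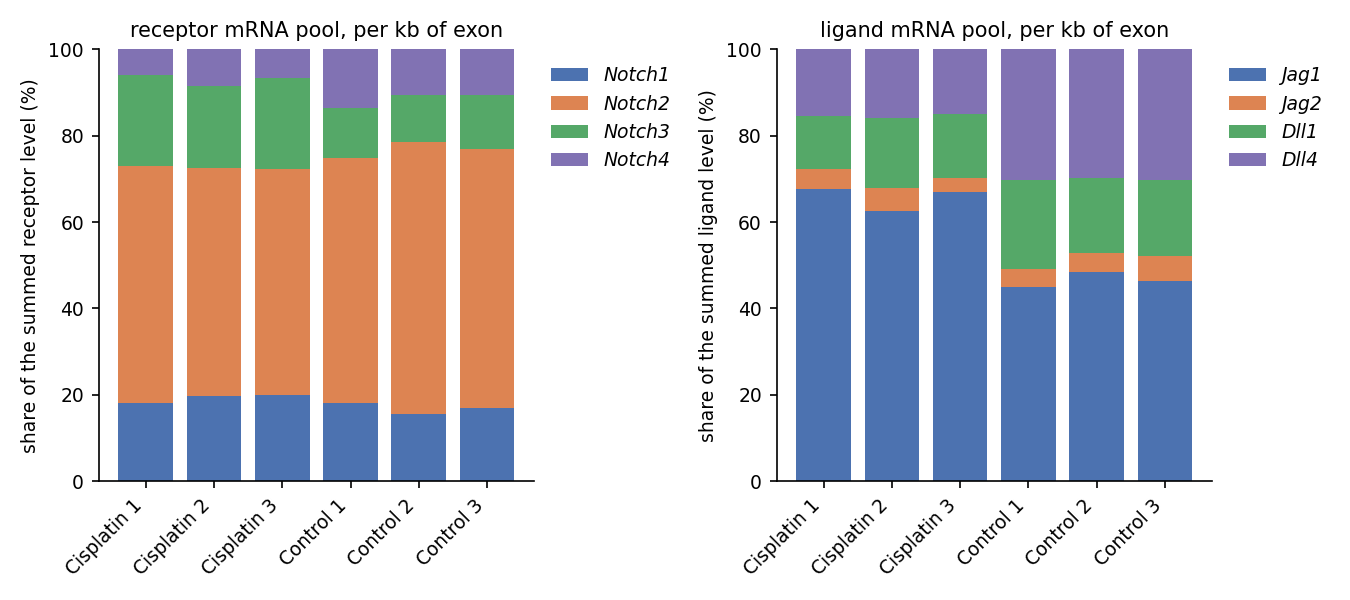
Share (%) of each receptor (left) and each ligand (right) in the summed per-kilobase level of its pool, stacked for each of the 6 libraries. The Jag1 block fills 62.6% to 67.7% of the ligand pool in the cisplatin libraries and 44.99% to 48.5% in the control libraries, and the Notch3 block is larger in every cisplatin library than in any control library.

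The sum of the pools varied more between cisplatin libraries than between control libraries. The receptors together reached 11.96, 8.69 and 6.28 CPM per kb in the cisplatin libraries, against 7.41, 7.91 and 7.04 in the control libraries, so the third cisplatin library lay below and the other two above all control libraries. The ligands together reached 8.91, 7.27 and 5.95 CPM per kb in the cisplatin libraries, against 5.64, 5.69 and 5.04 in the control libraries, without overlap, with a ratio of means of 1.35. Among the 3 cisplatin libraries, the third was the lowest for 9 of the 10 members (all but Hey1), whereas it was the lowest for 37.6% of all tested genes. The share of read pairs on no annotated exon of the counted strand followed the same order. It was 9.32%, 6.63% and 6.09% in the cisplatin libraries, against 4.86%, 4.63% and 4.69% in the control libraries. Such pairs can lie within introns of annotated genes. The summed level of 9 fibroblast markers fell in this order too, at 731, 452 and 427 CPM in the cisplatin libraries, against 262, 228 and 207 CPM in the control libraries. So did endothelial (519, 435 and 395 CPM in the cisplatin libraries), mural, podocyte, T cell, intercalated cell, distal and proximal tubule markers. Principal cell markers ran the other way (312, 380 and 405 CPM). Thick ascending limb, injured tubule, macrophage and B and plasma cell markers did not follow this order. The part of these values in the spread of the Notch genes was not tested.

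Markers of the cells known to carry these receptors were set beside the members. Of 14 endothelial markers 1 was called higher and 4 lower (35.7% called, beside 47.4% of all tested genes), among the lower Kdr, the main receptor for VEGF, at a log2 fold change of -0.73, while Ptprb and Plvap were not called. The higher call was lost in every omission of a single library but that of the first cisplatin library, where 9 markers were called lower, and with library totals 3 were called higher and 0 lower. The summed endothelial level was 395 to 519 CPM in the cisplatin-injured kidney and 534 to 556 CPM in control. Relative to this sum, the log2 ratio of Dll4 was lower by 0.26 in the cisplatin group than in control and did not overlap, that of Notch4 differed by -0.22 and overlapped, and that of Notch1 was higher by 0.69 and did not overlap. Exact p could not fall under 0.1 (Dll4 and Notch1 p = 0.1, Notch4 p = 0.4). Many epithelia also carry Notch1, so its ratio is not a level per endothelial cell. The log2 fold change of Notch1 itself was 0.44 and not called, and the endothelial sum in the cisplatin group was 0.83 of that in control.

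Of 10 mural markers 5 were called higher, among them Rgs5 (log2 fold change 0.71), and 2 lower, one of them Ren1, which encodes renin (-1.04), while Pdgfrb at 0.45 was not called. The mural shares called were 50% higher and 20% lower, beside 24.5% and 22.8% of all tested genes. The summed mural level was 288 to 354 CPM in the cisplatin-injured kidney and 265 to 286 CPM in control. The log2 ratio of Notch3 to this sum was higher by 0.82 in the cisplatin group, without overlap (exact p = 0.1). The sum includes Ren1, at a mean of 27.6 CPM in the cisplatin group and 56.8 CPM in control, which makes this difference larger. Fibroblast (8 of 9), macrophage (11 of 12) and principal cell markers (7 of 9) were called higher, beside 24.5% of all tested genes. Proximal tubule markers (9 of 10) were called lower, beside 22.8% of all tested genes. The part of these cell types in the members' values was not tested.

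The rest of the pathway was read from 83 further genes in 8 role lists, of which 73 were tested. Of these 18 (24.7%) were called higher and 11 (15.1%) lower, beside 24.5% and 22.8% of all tested genes, and their median log2 fold change was 0.03. Without the first or the second control library, 7 were called lower. Taken as a whole the pathway was not called more often than genes in general. Some of its genes changed more than any member, as did some genes outside it. The change of Notch3, the largest among the members, exceeded in size that of 86.4% of all tested genes.

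Receptor glycosylation tunes which ligands a receptor answers to. Of 11 tested genes 3 were higher and 1 was lower (36.4% called, beside 47.4% of all tested genes). Gxylt2, which adds xylose to O-glucose on the receptor's EGF repeats, had 8.06, 5.80 and 5.63 CPM in the cisplatin libraries, against 0.546, 0.341 and 0.433 CPM in the control libraries, a log2 fold change of 3.86 (SE 0.25, edgeR adjusted p = 9.53e-07). Its relative Gxylt1 (0.64) and Lfng (0.70), the Fringe enzyme that favours Delta over Jagged ligands, were higher. Eogt (-0.78), which adds O-GlcNAc and supports Delta-like signalling in mouse endothelium, was lower.

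Of 3 other ligands that were tested, 2 were called higher (66.7%, beside 24.5% of all tested genes). Mfap2 and Mfap5, microfibril proteins reported to bind Notch receptors or ligands, had log2 fold changes of 2.06 and 1.37, from mean levels of 2.37 and 1.39 CPM in the cisplatin-injured kidney and 0.574 and 0.524 CPM in control, while Egfl7 (0.08) was not called and Dll3, Dlk1, Dlk2 and Dner had too few counts. Ubiquitin ligases and epsins pull the bound ligand into the sending cell. Of 6 such genes, Neurl1a (2.41, at a mean of 1.07 CPM in the cisplatin group and 0.190 CPM in control), Neurl1b (0.70) and Epn2 (0.34) were higher. Epn1 (-0.38) and Mib2 (-0.28) were lower, all as log2 fold changes. Of the 6 genes, 50% were called higher and 33.3% lower, beside 24.5% and 22.8% of all tested genes. Their summed level in the cisplatin group was 0.97 of that in control.

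Of the genes of receptor cleavage, Ncstn (log2 fold change 0.44), the substrate receptor of gamma-secretase, was higher. Aph1c (-0.92), another part of gamma-secretase, was lower, while its nearly identical paralog Aph1b (0.26) was not called. Pairs that mapped to several places were left out, so pairs that fit both genes equally are missing from both counts. In the nuclear complex, Maml3 (0.77), a Mastermind coactivator, was higher and the acetyltransferase Kat2b (-0.47) lower of 9 genes (22.2% called, beside 47.4% of all tested genes). Rbpj itself did not pass the test, with a log2 fold change of 0.12 (SE 0.09, edgeR adjusted p = 0.309).

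Among corepressors, which keep targets silent in the absence of Notch, 4 were higher and 3 lower of 16 (43.8% called, beside 47.4% of all tested genes). Those with the smallest adjusted p were Ctbp2 (log2 fold change 0.60), Tle1 (0.84) and Tle2 (0.70) among the higher genes and Cir1 (-0.54), Ncor1 (-0.31) and Hdac2 (-0.28) among the lower. Genes of receptor turnover had 4 higher and 2 lower of 14 (42.9% called, beside the same 47.4%). Numbl (1.78) was higher and its relative Numb (-0.31), an endocytic inhibitor of Notch, lower. Dtx4 (0.81), a ubiquitin ligase of the Deltex family, and Fbxw7 (0.71), which marks the Notch intracellular domain for degradation, were higher, and Ccnc (-0.69), the cyclin that acts with CDK8 before that degradation, was lower.

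**Figure D5:**
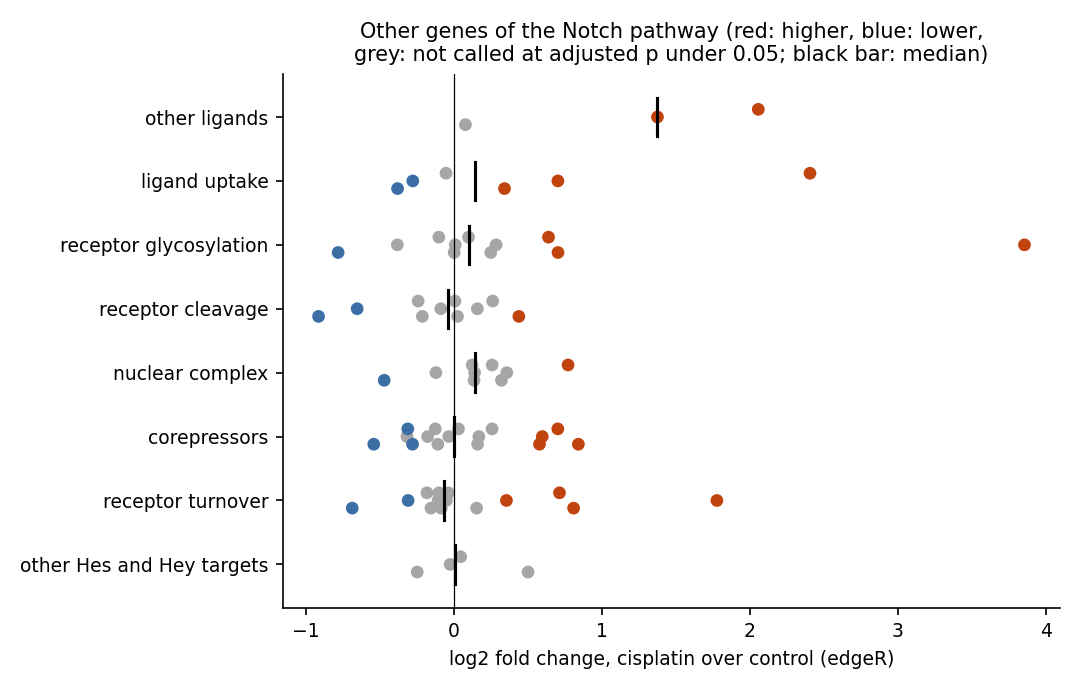
Log2 fold change (x axis, cisplatin over control, edgeR) of the 73 tested genes of the 8 role lists, 1 point per gene. Red and blue points were called higher and lower at an adjusted p under 0.05, grey points were not called, and black bars mark the list medians. Gxylt2 at 3.86 and Neurl1a at 2.41 stand farthest to the right, and no gene of the list labelled other Hes and Hey targets was called.

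Across the 10 members, 4 showed no overlap between the groups (Notch3 and Jag1 higher, Notch4 and Dll4 lower in cisplatin), beside 57.8% of all tested genes. Between cisplatin libraries the coefficient of variation ran from 9.20% for Hes1 to 38.8% for Hey1, with a median over all tested genes of 12.6%, and between control libraries from 0.983% for Notch3 to 44.4% for Hey1, with a median of 7.78%. Except for Hes1, every member varied more between cisplatin libraries than the median tested gene. These coefficients were not adjusted for depth, and Hey1 (11, 25 and 13 counts) and Jag2 (82, 83 and 30) had few counts in the cisplatin libraries. The 0.983% of Notch3 rests on 184, 160 and 164 counts and was not compared with counting noise.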

How the data were processed

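Total RNA from 3 cisplatin and 3 control kidneys was sequenced as stranded 150-bp read pairs. The authors trimmed adapters with Cutadapt, aligned pairs to mm39 with STAR (settings and annotation release not given in the sources used here, and versions stated only in a list for the whole study or for another assay) and deposited STAR's raw count per gene and library, without normalization. The count of the transcript's own strand (96.7% to 97.2% of stranded counts) was used. Pairs that were unmapped, mapped to several places, ambiguous or on no annotated exon of that strand (21.2% to 25.9% of all pairs) were left out of library sizes and tests. Replicates differed beyond counting noise (chi-square per gene 4.96 or more).

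Genes were named and measured with GENCODE vM39. Counts were filtered (filterByExpr, minimum count 10, minimum total 15), scaled with TMM and tested with edgeR 4.0.16 (quasi-likelihood F test, R 4.3.3), 2 groups without covariates, with Benjamini-Hochberg adjustment over all genes tested and a threshold of 0.05. The script was tested on simulated data. DESeq2 1.42.0 and limma 3.58.1 (voom) were alternatives, as were other scalings, filters, strand settings, a replicate block and the omission of each library. Shares and log2 ratios were compared with two-sided exact permutation tests. Figures were drawn with matplotlib 3.10.9.

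All 10 members are named. From each role list, up to 3 genes per direction with the smallest adjusted p, and genes without a test in lists of 8 or fewer, are named, and from marker lists at most 3 genes, those of highest mean CPM. Egfl7, Hes6, Hey2, Heyl, Nrarp, Rbpj and Aph1b were named besides, after their values were seen. Some items that this rule would name or show are not reported here. The members and lists were chosen with earlier results of these data known.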

Additional observations from a re-analysis of the deposited data

How the results depend on the processing

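Jag1 and Notch3 kept their direction and their call in every alternative that was run, with log2 fold changes of 0.75 to 1.02 and of 0.79 to 1.23 over the omissions of single libraries. Of 159 values of the 10 members over the alternatives, 133 kept direction and side of the threshold, 17 newly passed it, 4 lost it and 5 changed sign. The number of members called higher was 2, and 4 with upper-quartile factors, with library totals and with at least 10 counts required in every library, with a range of 2 to 5 over the omissions (5 without the third cisplatin library, where Notch1, Hes1 and Jag2 also passed). The number called lower was 1, and 0 with library totals, 2 with no low-count filter (Notch4 passed), and 0 to 1 over the omissions, the 0 being without the second cisplatin or the first or second control library. Of the other pathway genes, 18 higher became 43 with library totals (14 to 20 over the omissions), and 11 lower became 7 with upper-quartile factors and 3 with library totals (7 to 13 over the omissions, 7 without the first or the second control library). Lower marker genes fell from 23 to 9 with library totals. With library totals the median over all genes shifted by 0.43 (log2), and higher genes made up 86.1% of all called genes, against 51.8% in the fit reported and 62.3% with upper-quartile factors. Against the median of all genes, Dll4 stood at -0.56 and Jag1 at 0.90 with library totals. Values that changed sign were those of Notch2 (-0.18 to 0.29 over the omissions, the lowest without the first cisplatin library), Dll1 (-0.037 to 0.16 over the omissions, below 0 without the second cisplatin, at -0.028, or the third control library) and Hey1 (0.15 with library totals and -0.63 to 0.038 over the omissions, above 0 without the second control library). The share of Jag2 among ligands changed from -0.421 percentage points to between -0.957 and 0.189 over the omissions (0.189 without the third cisplatin and 0.101 without the third control library). The share of Dll4 differed by -14.6 points, -13.9 with counts that ignore strand, -11.7 with raw counts in place of counts per kilobase and -13.7 with the length of the canonical transcript, an alternative chosen after seeing the data, and that of Notch3 by 8.75 points and 7.06 with raw counts. The causes were not tested.

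The labels give both groups replicate numbers 1 to 3 without naming a shared litter or day. Same-numbered libraries deviated together only weakly (correlations of 0.133, 0.142 and 0.0997), so the numbers were not taken to pair the samples, although each library correlated best with its own number, a hint from the data and not the design. With the replicate number as a block, 4 members were called higher (Notch1 and Hes1 also, adjusted p = 0.0117 and 0.0371) and 2 lower (Notch4 also, 0.0145), and the count of all called genes was 4087 higher and 3796 lower.

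Depth limits Hey1 most, with 8 to 25 counts per library, and Jag2, with 30 to 83.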
